A study of Mus musculus with 2 samples.

Results

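The 10 imprinted growth genes *H19*, *Meg3*, *Dlk1*, *Peg3*, *Cdkn1c*, *Plagl1*, *Grb10*, *Mest*, *Ndn* and *Zdbf2* were read from the count tables of newborn mouse lung, where they are 10 of 27254 genes listed in either table. They were chosen by name, and all 10 were detected in both libraries. Imprinted genes are transcribed mainly or only from the copy inherited from one parent, because marks laid down in the egg or the sperm are kept in the body. Many of them act on growth before and shortly after birth, in opposite directions, and several fall silent as organs mature. *H19*, *Meg3*, *Cdkn1c* and, in most tissues, *Grb10* are known as maternally expressed, and *Dlk1*, *Peg3*, *Plagl1*, *Mest*, *Ndn* and *Zdbf2* as paternally expressed. The counts do not distinguish the parental copies.

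Whole lungs of 2 female wild-type C57BL/6J mice were dissociated at postnatal day 1 (PND1), and the cells were profiled with Drop-seq, in which a bead carries the barcode of a cell and a unique molecular identifier (UMI) for each captured transcript. Each library, Batch 1 and Batch 2, is 1 mouse, and no other genotype, treatment or age was compared. Cells with at most 10% of UMIs from mitochondrial genes were used, which were 2388 of 2389 cells in Batch 1 and 5615 of 7555 in Batch 2. Their median depth was 1386 and 2014 UMIs. The batches are the only replicates, so that all p-values below rest on 2 mice.

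Cells were grouped into 39 clusters without the imprinted genes, and the clusters were named from marker genes. The lineages held 332 and 1460 epithelial, 572 and 1537 endothelial, 1249 and 2000 mesenchymal, and 177 and 530 immune cells in Batch 1 and Batch 2. Each lineage's marker list was highest in its own cells. The mesenchymal list, at 159.7 and 100.8 UMIs per 10000 in mesenchymal cells, was also read at 20.8 and 12.1 in epithelial and at 23.1 and 20.6 in endothelial cells. No barcode was shared by the libraries, and 14.7% and 14.9% of cells carried UMIs of markers of 2 lineages, which were kept. A level is given below as UMIs of the gene per 10000 UMIs of all cells of the group, and its 95% Poisson interval, like the binomial intervals, covers counting error only.

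Positions are given in GRCm38 coordinates of the GENCODE annotation. *H19* (chr7:142575529-142578143, minus strand, a long noncoding RNA) lies 72622 bases from *Igf2*, the insulin-like growth factor 2 gene. *Dlk1* (chr12:109452823-109463336, plus strand) and the noncoding *Meg3* (chr12:109541001-109571726, plus strand) are separated by 77664 bases. *Cdkn1c* (chr7:143458339-143461050), *Peg3* (chr7:6703892-6730431) and *Ndn* (chr7:62346569-62350262) are also on chromosome 7. The exons of *Mest* (chr6:30723547-30748465) share 912 bases with those of *Copg2* on the opposite strand, *Meg3* shares 1228 with Gm26906 and *Cdkn1c* 625 with Gm44732, likewise opposite. Whether the counting used strand is not given in the sources used here, and the counts of these 3 genes are uncertain to that degree.

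Start site sequences of RefSeq (GRCm38.p6) were available for 8 of the 10 genes. The 250 bases upstream of the start are shown for *Dlk1* and *Meg3*, which share a locus and a pattern across cells. They are also shown for *Peg3* and *Zdbf2*, which hold the same motif as *Meg3*. For *Meg3* and *Zdbf2*, 1 of 2 starts is shown. Capitals mark TGACGTCA, the palindromic form of the cyclic AMP response element. This motif was chosen after the sequences had been seen.

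Meg3, chr12:109540746-109540995, plus strand: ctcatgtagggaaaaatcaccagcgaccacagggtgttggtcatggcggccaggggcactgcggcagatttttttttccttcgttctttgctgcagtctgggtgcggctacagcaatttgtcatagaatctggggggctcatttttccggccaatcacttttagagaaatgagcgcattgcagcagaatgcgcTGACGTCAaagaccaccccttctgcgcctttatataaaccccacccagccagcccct
Dlk1, chr12:109452573-109452822, plus strand: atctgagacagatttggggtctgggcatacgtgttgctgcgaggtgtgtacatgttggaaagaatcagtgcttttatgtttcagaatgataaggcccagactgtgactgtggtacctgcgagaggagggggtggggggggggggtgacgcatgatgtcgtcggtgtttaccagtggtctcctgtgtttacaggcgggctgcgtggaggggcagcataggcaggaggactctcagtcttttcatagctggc
Peg3, chr7:6730420-6730669, minus strand: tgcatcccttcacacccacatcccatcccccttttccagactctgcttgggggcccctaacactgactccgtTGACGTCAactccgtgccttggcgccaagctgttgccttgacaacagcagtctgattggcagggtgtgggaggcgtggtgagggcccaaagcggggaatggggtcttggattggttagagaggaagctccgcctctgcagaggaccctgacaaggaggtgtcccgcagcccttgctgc
Zdbf2, chr1:63273019-63273268, plus strand: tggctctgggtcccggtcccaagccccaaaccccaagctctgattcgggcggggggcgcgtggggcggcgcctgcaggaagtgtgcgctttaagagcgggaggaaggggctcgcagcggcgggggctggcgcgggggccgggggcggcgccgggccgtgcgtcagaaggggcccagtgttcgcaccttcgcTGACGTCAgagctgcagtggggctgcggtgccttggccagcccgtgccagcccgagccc

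TGACGTCA, which reads alike on both strands, was in 508 of 32851 such windows of all genes (1.55%) and in 3 of 13 windows of these genes, those of *Meg3*, *Peg3* and *Zdbf2* shown. The window of *Dlk1* did not hold these letters. CG pairs, the usual site of DNA methylation, had a median of 6 over all windows. They numbered 10 in the *Meg3* window shown, 8 each in those of *Dlk1* and *Peg3* and 40 in 1 of 2 windows of *Grb10*. The other *Meg3* window, without TGACGTCA, had 0, and that of *Ndn* had 5. No methylation was measured here.

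The 10 genes differed in the classes in which their levels were high. *Meg3* and *Dlk1* were high in alveolar type 2 cells, adventitial fibroblasts and pericytes, *H19* in lymphatic and arterial endothelium and muscle, *Peg3* in fibroblasts and capillary endothelium, *Cdkn1c* in mesenchyme and ciliated airway cells, and *Mest* in capillary and lymphatic endothelium. The plot of levels by class shows these patterns for both batches.

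**Figure D1:**
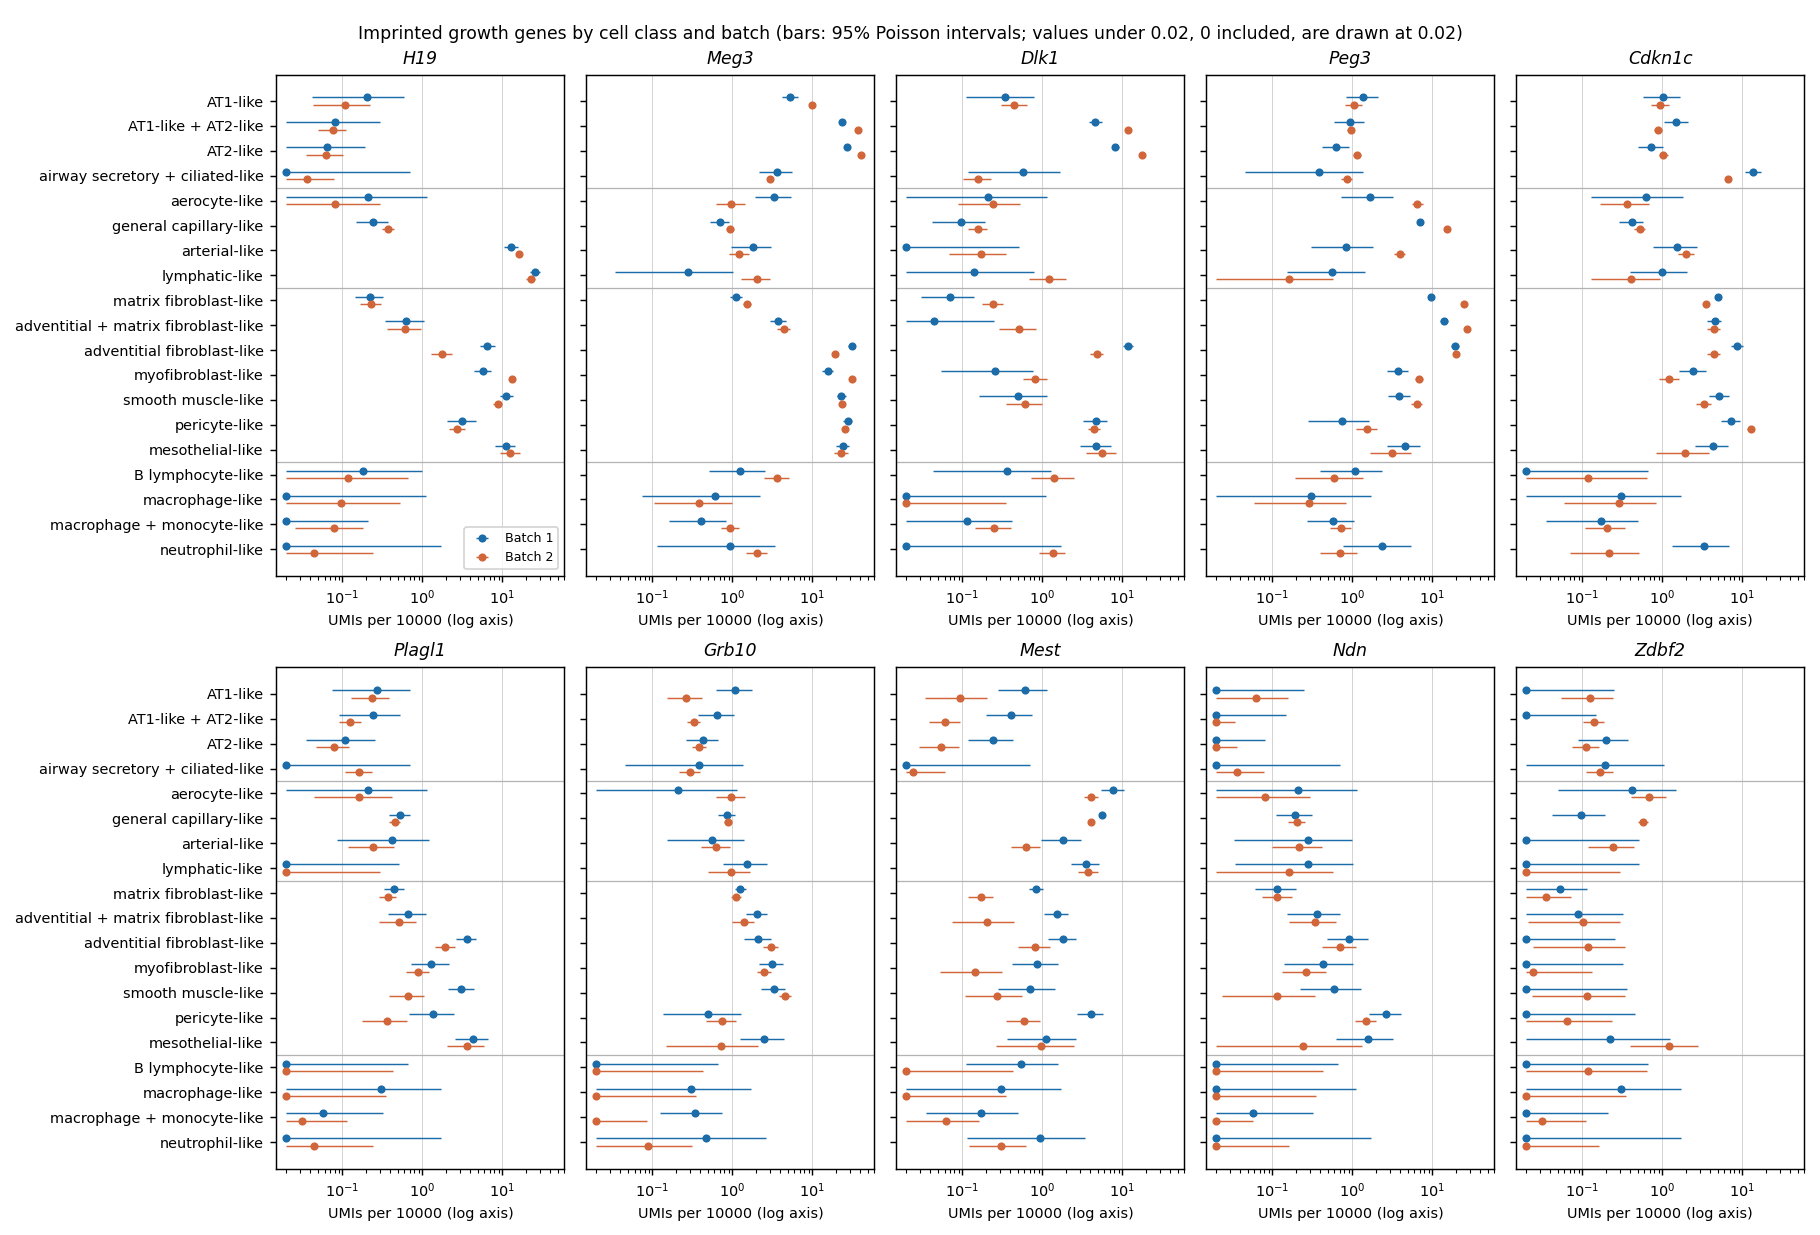
Level of each gene in UMIs per 10000 (log axis) in 19 cell classes, with epithelial, endothelial, mesenchymal and immune classes between the grey lines from top to bottom. Points are Batch 1 (blue) and Batch 2 (orange) with 95% Poisson intervals. *H19* reaches 25.6 and 22.6 in lymphatic-like cells but 0.244 and 0.373 in general capillary-like cells. A cluster with markers of both pericytes and smooth muscle, higher in *H19* than lymphatic-like cells in Batch 2, is among those not drawn.

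At least 1 member of the group was found in most cells outside the immune lineage, but the members differed widely in their own shares. At least 1 of the 10 genes was detected in 90.7% and 94.5% of epithelial, 76.8% and 88.8% of endothelial and 87.8% and 96.3% of mesenchymal cells in Batch 1 and Batch 2, and in 22.6% and 29.3% of immune cells. With every cell thinned to 600 UMIs, the shares were 71.4% and 79.8%, 56.1% and 65.3%, 71.6% and 83.6%, and 12.99% and 12.45%. In Batch 1 epithelial cells were above mesenchymal cells at full depth only, in Batch 2 below them at both depths, and immune cells were lowest throughout. Immune cells, with median depths of 1391 and 1846 UMIs against 1289 and 1674 in mesenchymal cells, serve as the background for these shares. *Meg3* was read in 5.09% and 13.4% of them, *Peg3* in 9.04% and 9.62%, and *H19* in 0.565% and 1.89%. In epithelial cells *Meg3* was read in 79.8% and 88.7% but *H19* in 2.11% and 2.74%. In mesenchymal cells *Peg3* was read in 55.5% and 73.5% but *H19* in 10.5% and 18.4%. The shares of the group thus owe much to single genes.

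The first comparison set the mesenchymal lineage against the mean of the 3 other lineages. Of the 10 genes, 7 were higher in mesenchymal cells and none was lower, with edgeR's quasi-likelihood test and Benjamini-Hochberg adjustment over 12246 genes, of which 31.3% passed, 17.0% as higher and 14.3% as lower. The median log2 fold change was 2.18 for the 10 genes and -0.01 for all genes. The 7 were *H19* (3.61 ± 0.24 SE, adjusted p = 2.68e-06), *Ndn* (3.41 ± 0.43), *Peg3* (2.85 ± 0.18), *Cdkn1c* (2.71 ± 0.19), *Grb10* (2.21 ± 0.32), *Plagl1* (2.15 ± 0.22) and *Meg3* (1.53 ± 0.15). Within Batch 1 and Batch 2 alone the difference of *Grb10* was 1.52 and 2.84, and that of *Ndn* 2.80 and 3.38. *Dlk1*, *Mest* and *Zdbf2* did not pass. *Dlk1* (adjusted p = 0.068) passed without the gene filter, with a mitochondrial limit of 5% and without cells with markers of 2 lineages. The difference of *Dlk1* was 1.36 within Batch 1 but 0.07 within Batch 2.

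The mean over lineages includes immune cells, and the mesenchymal lineage was not the highest for each gene. Immune cells held 1 and 0 UMIs of *Ndn*, 2 and 5 of *Plagl1* and 9 and 3 of *Grb10*, so that these fold changes rest partly on counts near 0. *Ndn* was at 0.41 and 0.33 UMIs per 10000 in mesenchymal against 0.24 and 0.21 in endothelial cells. *Plagl1* was at 1.04 and 0.602 against 0.671 and 0.554. The intervals overlapped for *Ndn* in Batch 1 and for *Plagl1* in Batch 2. *H19* stood at 2.73 (2.43 to 3.05) and 2.39 (2.26 to 2.54) UMIs per 10000 in endothelial cells and at 2.13 (1.93 to 2.35) and 4.11 (3.91 to 4.32) in mesenchymal cells, so that the higher lineage was not the same in the batches. *Meg3* stood at 21.4 and 29.2 UMIs per 10000 in epithelial cells and at 7.69 and 10.5 in mesenchymal cells. *Dlk1* stood at 5.49 and 10.2 in epithelial and 1.33 and 1.21 in mesenchymal cells. *Mest* was highest in endothelial cells, at 5.24 and 3.67 against 1.121 and 0.288 in mesenchymal cells. Without the immune lineage in the mean, a comparison added after seeing the data, 7 genes were higher, *Meg3* by 0.69 on the log2 scale, and *Zdbf2* was lower, by 1.62, where 28.6% of all genes tested passed, 14.7% as higher and 13.9% as lower.

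Of 40 other imprinted genes, 36 were listed in the tables and 26 were tested in this comparison. Among them 10 were higher in mesenchymal cells and 0 lower, where 17.0% of all genes tested passed as higher and 14.3% as lower. The 10 were *Igf2* and its clearance receptor *Igf2r*, the noncoding *Airn* and *Rian*, *Sgce*, *Snrpn*, *Gnas*, *Nnat*, *H13* and *Dcn*. Their log2 fold changes were between 0.64 (*Gnas*, 0.19 SE) and 5.87 (*Dcn*, 0.35 SE). *Dcn* was 1 of the markers of adventitial fibroblasts, so that its level is no finding. The median over the 26 genes was 0.65.

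*H19* is a noncoding RNA that is abundant in fetal tissue and is transcribed from the locus of *Igf2*. In lymphatic-like cells, which line the lymph vessels, it was read at 25.6 (22.1 to 29.6) and 22.6 (20.1 to 25.4) UMIs per 10000 and in 85.7% of cells in both batches, 18 of 21 and 24 of 28. Arterial-like cells had 12.9 and 16.1, and the cells with most *H19* held 66 UMIs in a lymphatic-like cell of Batch 1 and 172 in an arterial-like cell of Batch 2. In general capillary-like cells the level was 0.244 and 0.373, and in aerocyte-like cells, the other capillary class, 0.208 and 0.0811. Lymphatic-like and arterial-like cells lay above both capillary classes in each batch.

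Smooth muscle-like cells had 11.3 and 8.79 UMIs per 10000 of *H19*, myofibroblast-like cells 5.72 and 13.3, and mesothelial-like cells, the outer lining of the lung, 11.1 and 12.6 in 21 and 11 cells. A single cluster with markers of both pericytes and smooth muscle had 5.51 (2.93 to 9.42) in 13 cells of Batch 1. In 86 cells of Batch 2 it had 26.2 (24.0 to 28.5) and held 18.9% of all *H19* UMIs. The genes that stood out most in it were *Tnnt2*, *Myl7*, *Acta2*, *Actc1* and *Myl4*. With under 20 cells in Batch 1 it entered no comparison of classes. Its cells are counted in the levels and the comparison of the mesenchymal lineage. Matrix fibroblast-like cells, the most numerous mesenchymal class, had 0.220 and 0.227, and AT2-like cells 0.0653 and 0.0620. The latter are near the 0.0312 and 0.0888 of immune cells.

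In lymphatic-like cells *H19* was higher than the mean of the 3 blood endothelial classes by 4.85 ± 0.33 on the log2 scale (adjusted p = 2.45e-14 by edgeR's quasi-likelihood test). Of the 10 genes, 4 passed in this comparison, 2 as higher and 2 as lower, and 11.9% of 8555 genes tested did, 6.01% as higher and 5.88% as lower. *Igf2*, the neighbour of *H19*, rose with it, by 4.13 ± 0.31, and stood at 11.8 and 24.9 UMIs per 10000 in lymphatic-like, 10.4 and 17.6 in arterial-like and 0.232 and 0.514 in general capillary-like cells. The lymphatic marker list was at 194.1 and 143.5 in lymphatic-like cells and at 29.0 and 53.7 in general capillary-like cells. The mesenchymal list was at 10.1 and 11.4 in lymphatic-like cells, below the 22.3 and 17.8 of general capillary-like cells.

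*Peg3*, a zinc finger protein, was lower in lymphatic-like cells (log2 fold change -4.10 ± 0.56). It was at 0.560 (0.153 to 1.43) and 0.161 (0.0195 to 0.581) UMIs per 10000 there, from 4 and 2 UMIs, against 7.09 and 15.5 in general capillary-like, 1.67 (0.719 to 3.28) and 6.49 in aerocyte-like and 0.833 (0.306 to 1.81) and 3.91 in arterial-like cells. The interval of lymphatic-like cells overlapped those of aerocyte-like and arterial-like cells in Batch 1 but not in Batch 2, and the log2 differences within the batches were -1.74 and -5.44. *Plagl1* had 0 UMIs in lymphatic-like cells of both batches, where 3 UMIs would be 0.420 and 0.241 per 10000, and 0.524 and 0.455 in general capillary-like cells. Its call was lost with DESeq2 and without the replicate block. *Dlk1* passed as higher, by 2.201 ± 0.69, on 1 UMI in Batch 1 and 15 in Batch 2. The difference within Batch 1 was 0.44, so that the call of *Dlk1* rests on Batch 2. At a lower clustering resolution, at which lymphatic-like cells were joined by cycling endothelial cells, *Peg3* no longer passed.

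*Meg3* is a noncoding RNA of the *Dlk1* locus, and *Dlk1* encodes a membrane protein with EGF-like repeats that is kept on immature cells and can be shed. In AT2-like cells, the surfactant-making cells of the alveolus, *Meg3* was read at 27.5 (26.0 to 29.1) and 41.0 (40.2 to 41.8) UMIs per 10000 and in 93.1% and 98.6% of cells. In AT1-like cells, which form the gas exchange surface, it was at 5.31 and 9.98, in the airway class at 3.63 and 3.01, and in clusters with markers of both AT1 and AT2 cells at 23.4 and 37.2. AT2-like cells held 35.3% and 34.8% of all *Meg3* UMIs and these mixed clusters 16.1% and 44.6%. The batches differed in level, and the order of the classes was the same in both. A single cluster held 113 of the 189 AT2-like cells of Batch 1 but 6 of the 626 of Batch 2. The class was thus not made up alike in the batches.

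*Dlk1* was at 8.17 and 17.5 UMIs per 10000 in AT2-like cells and at 0.340 and 0.450 in AT1-like cells. Clusters with markers of both types had 4.61 and 11.7. AT2-like cells carried 49.1% of all *Dlk1* UMIs of Batch 1 and 47.4% of those of Batch 2, and the clusters with markers of both types 14.8% and 44.9%.

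Against AT1-like cells, AT2-like cells were higher in *Dlk1* by 5.34 ± 0.53 (adjusted p = 8.97e-10) and in *Meg3* by 2.48 ± 0.34 on the log2 scale (adjusted p = 8.18e-07, both by edgeR's quasi-likelihood test). Most AT2-like cells of Batch 1 and of Batch 2 came from different clusters. Within the batches the differences were 4.75 and 5.41 for *Dlk1* and 2.83 and 2.22 for *Meg3*. These were 2 of the 10 genes, both higher, and 12.9% of genes tested passed, 6.88% as higher and 6.04% as lower. *Rian*, a noncoding RNA downstream of *Meg3*, was also higher, by 2.27 ± 0.44, with 1.31 and 1.15 UMIs per 10000 in AT2-like and 0.408 and 0.264 in AT1-like cells. AT1-like cells held more of the mesenchymal list, 57.8 and 44.9 against 9.02 and 5.54 UMIs per 10000, and its part in these differences was not tested.

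Within mesenchyme, *Meg3* was far lower in matrix fibroblast-like cells than in the other classes given here. It was at 31.2 and 19.4 UMIs per 10000 in adventitial fibroblast-like cells, the collagen-rich cells around vessels and airways, at 27.9 and 25.8 in pericyte-like cells, at 23.2 and 23.8 in smooth muscle-like cells, and at 15.6 and 31.2 in myofibroblast-like cells. In matrix fibroblast-like cells it was at 1.13 (0.940 to 1.34) and 1.53 (1.36 to 1.71), in 10.1% and 18.7% of cells. The AT2 marker list, given as a reading of AT2 RNA in other classes, was at 54.3 and 29.1 in pericyte-like and 6.14 and 15.3 in matrix fibroblast-like cells, and at 1464 and 1025 in AT2-like cells.

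*Dlk1* followed *Meg3* only in part of these classes. It was at 11.9 and 4.78 UMIs per 10000 in adventitial fibroblast-like, 4.65 and 4.50 in pericyte-like and 4.74 and 5.55 in mesothelial-like cells. In smooth muscle-like cells it was at 0.498 and 0.617 and in myofibroblast-like cells at 0.260 and 0.819, although *Meg3* was high there. Over 32 sums of 16 classes in 2 batches, centred within each batch, the gene with the highest correlation to *Dlk1* of 6655 genes was *Meg3* (Pearson's r = 0.79), and that to *H19* was *Igf2* (r = 0.87). The sums of a batch share a library, and the classes share lineages.

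**Figure D2:**
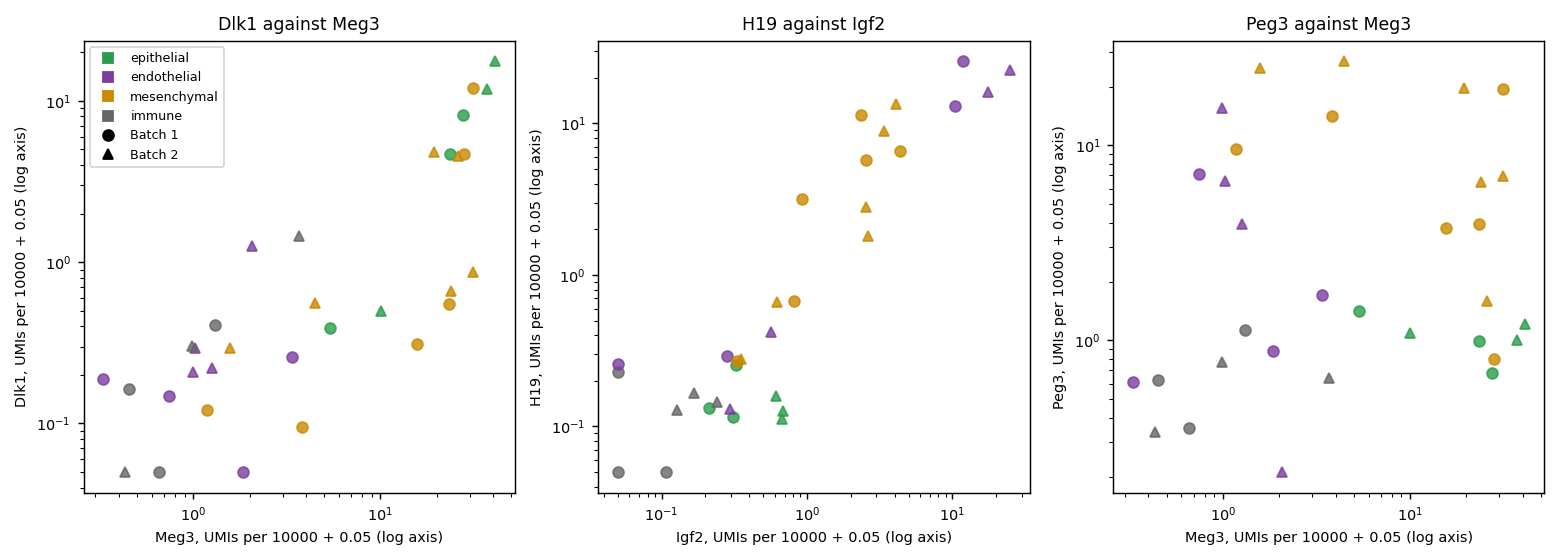
Levels in UMIs per 10000 plus 0.05 (log axes) of *Dlk1* against *Meg3*, *H19* against *Igf2* and *Peg3* against *Meg3* in 16 classes, coloured by lineage, with circles for Batch 1 and triangles for Batch 2. *Dlk1* and *H19* rise with their neighbours, except that myofibroblast-like and smooth muscle-like cells have *Meg3* with little *Dlk1*, and *Peg3* shows no such order with *Meg3* (r = 0.16).

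*H19* was at 6.54 and 1.75 UMIs per 10000 in adventitial fibroblast-like cells and *Plagl1* at 3.59 and 1.94. Adventitial fibroblast-like cells were set against matrix fibroblast-like cells, and 5 of the 10 genes were higher and 0 lower, where 6.20% of all genes tested passed, 3.54% as higher and 2.65% as lower. *Dlk1* was higher by 5.84 ± 0.51 on the log2 scale, *Meg3* by 4.22 ± 0.37, *H19* by 4.04 ± 0.43, *Ndn* by 2.64 ± 0.53 and *Plagl1* by 2.57 ± 0.38 (edgeR's quasi-likelihood test, adjusted p of 1.7e-10 for *Dlk1* and 0.000847 for *Ndn*). *Igf2* and *Rian* were higher as well, by 3.5 ± 0.41 and 4.63 ± 0.45. Most matrix fibroblast-like cells of Batch 1 and of Batch 2 came from different clusters, and the log2 differences within Batch 1 and Batch 2 were 6.23 and 4.15 for *Dlk1*, 4.36 and 2.80 for *H19* and 4.59 and 3.61 for *Meg3*.

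*Peg3* was at 3.73 and 6.89 UMIs per 10000 in myofibroblast-like and 3.89 and 6.44 in smooth muscle-like cells, and *Cdkn1c* at 2.43 and 1.23 in myofibroblast-like cells. Myofibroblast-like and smooth muscle-like cells together were set against matrix fibroblast-like cells. Here 7 of the 10 genes passed, 5 as higher and 2 as lower, where 15.2% of all genes did, 6.02% as higher and 9.16% as lower. *H19* was higher by 5.14 ± 0.41 and *Meg3* by 3.83 ± 0.35, followed by *Dlk1* (1.53 ± 0.51), *Plagl1* (1.34 ± 0.35) and *Grb10* (1.198 ± 0.35). *Peg3* was lower, at -1.94 ± 0.28, and *Cdkn1c* at -1.003 ± 0.29 (edgeR's quasi-likelihood test, adjusted p = 1.63e-06 and 0.012). Without the replicate block, *Dlk1*, *Cdkn1c*, *Plagl1* and *Grb10* lost their calls, and *Dlk1* and *Cdkn1c* also did so with DESeq2. The differences within the batches were 4.42 and 5.20 for *H19* and 1.65 and 0.777 for *Plagl1*. The smooth muscle-like class also held more of the myofibroblast marker list than the myofibroblast-like class, 182.1 and 143.2 against 74.0 and 62.5 UMIs per 10000, so that these names are no sharp division.

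Pericytes, the mural cells of capillaries, were set against the other mesenchymal classes. Of the 10 genes, 5 were higher than in the mean of the other mesenchymal classes and 2 lower, and 9.98% of all genes tested passed, 6.11% as higher and 3.87% as lower. *Dlk1* was higher by 2.63 ± 0.35, *Ndn* by 2.47 ± 0.37, *Mest* by 1.40 ± 0.42, *Meg3* by 1.36 ± 0.24 and *Cdkn1c* by 1.31 ± 0.25. Pericyte-like cells were not the highest mesenchymal class for *Dlk1* or *Meg3*. *Dlk1* was at 11.9 and 4.78 UMIs per 10000 in adventitial fibroblast-like against 4.65 and 4.50 in pericyte-like cells. *Meg3* was higher in adventitial fibroblast-like cells in Batch 1 and in myofibroblast-like cells in Batch 2. The difference of *Cdkn1c* was 0.39 within Batch 1 and 1.94 within Batch 2, so that its size rests largely on Batch 2. *Peg3* was at -3.41 ± 0.38 (adjusted p = 9.83e-09) and *Grb10* at -1.82 ± 0.44 (adjusted p = 0.0039, edgeR's quasi-likelihood test).

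*Peg3* was at 0.754 and 1.53 UMIs per 10000 in pericyte-like cells against 9.53 and 24.7 in matrix fibroblast-like, 14.1 and 26.9 in the mixed adventitial and matrix cluster and 19.4 and 19.7 in adventitial fibroblast-like cells. *Mest*, which encodes a hydrolase-like protein of the endoplasmic reticulum, was at 4.02 in pericyte-like cells of Batch 1 and at 0.587 in those of Batch 2. The call of *Mest* was lost with DESeq2, without the replicate block and at the lower resolution. Of the other imprinted genes, 19 were tested among classes. In pericyte-like cells 5 were higher and 2 lower, where 6.11% and 3.87% of all genes tested were. In the AT2, lymphatic, adventitial and muscle comparisons 2, 3, 3 and 7 of the 19 passed. Of all genes tested, 12.9%, 11.9%, 6.20% and 15.2% passed there. The pericyte, adventitial and muscle counts include *Dcn*, a marker used to name adventitial fibroblasts. In pericyte-like cells *Igf2r* was higher by 2.61 ± 0.28, its overlapping antisense RNA *Airn* by 2.63 ± 0.36, and *Gnas*, the stimulatory G protein alpha subunit, by 1.56 ± 0.19.

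**Figure D3:**
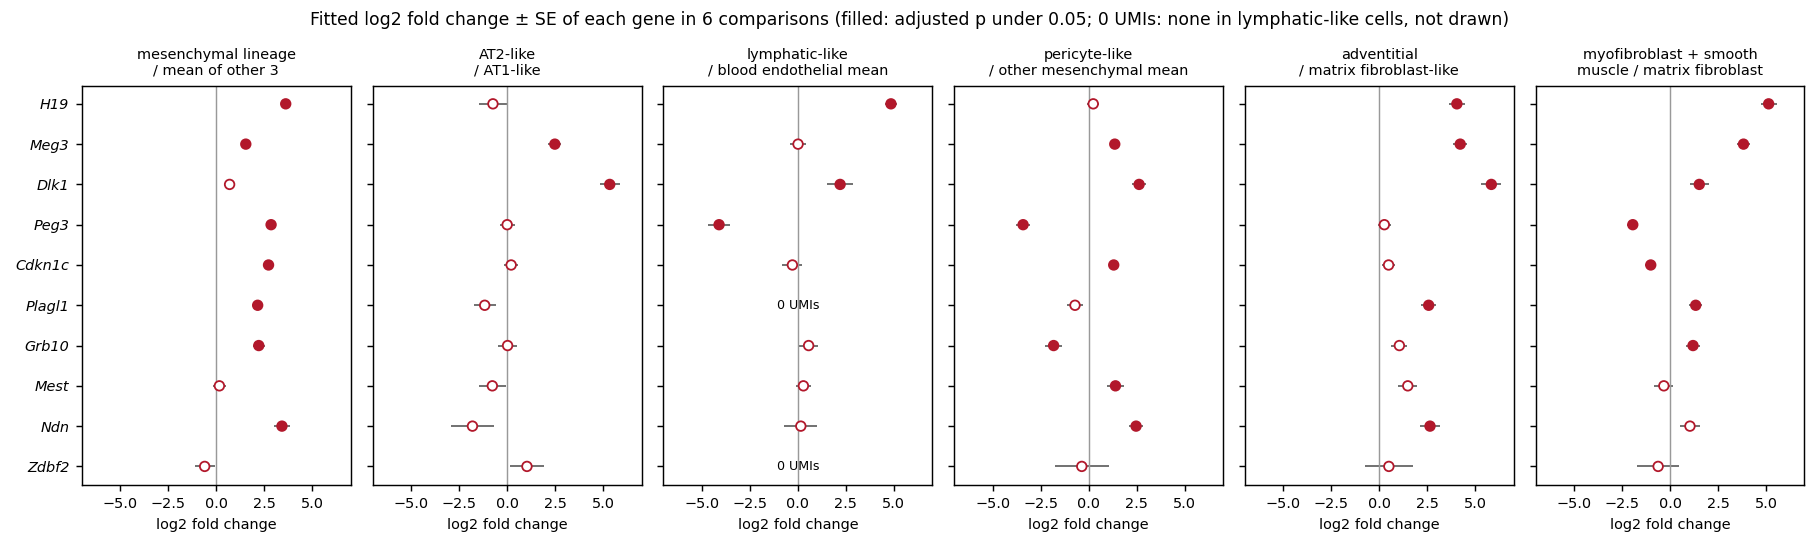
Fitted log2 fold change with its standard error for each gene in the 6 comparisons, first group over second, filled where the adjusted p was under 0.05 by edgeR's quasi-likelihood test, with genes at 0 UMIs in lymphatic-like cells not drawn. *H19* is highest in the lymphatic and the muscle comparisons (4.85 and 5.14), *Dlk1* in the adventitial comparison (5.84), and *Peg3* is lowest in the lymphatic one (-4.10).

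*Cdkn1c* encodes p57, an inhibitor of cyclin-dependent kinases that holds cells out of division. It was at 7.16 (5.42 to 9.28) and 12.9 (11.6 to 14.2) UMIs per 10000 in pericyte-like cells and at 5.04 (4.63 to 5.47) and 3.55 (3.29 to 3.82) in matrix fibroblast-like cells. Adventitial fibroblast-like cells had 8.72 (7.25 to 10.4) and 4.43 (3.65 to 5.32). In capillary, aerocyte-like and lymphatic-like endothelium it was at 0.980 or less. The intervals of pericyte-like cells overlapped those of both fibroblast classes in Batch 1 and lay above them in Batch 2.

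The airway class, of 13 and 118 cells, had 13.8 and 6.61 UMIs per 10000 of *Cdkn1c*, against 1.02 and 0.946 in AT1-like and 0.719 and 1.03 in AT2-like cells. Airway cells with at least 3 genes of the ciliated list had 16.5 in 8 cells of Batch 1 and 7.19 in 70 cells of Batch 2. The other airway cells had 3.60 (0.981 to 9.22) from 4 UMIs in 5 cells of Batch 1. In 48 cells of Batch 2 they had 3.44 (2.76 to 4.23). This split was added after seeing the data. The ciliated cells were deep, with median depths of 4967 and 11576 UMIs, and 1 airway cell held 118 UMIs of *Cdkn1c*.

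Since *Cdkn1c* restrains division, its level was also read in cells with UMIs of at least 3 of 20 cell cycle genes. In endothelial cells it was at 0.539 (0.217 to 1.11) in 26 such cells and 0.549 in the others of Batch 1, and at 0.521 (0.388 to 0.686) in 131 such cells and 0.703 (0.621 to 0.793) in the others of Batch 2. In mesenchymal cells the values were 4.93 and 5.16 in Batch 1 and 3.47 and 4.16 in Batch 2, on 5 and 17 cells with cell cycle genes. The intervals overlapped in each of these, and cells with cell cycle genes were deeper. In epithelial cells of Batch 2 the 48 cells with cell cycle genes had a median of 24002 UMIs, and no comparison was made there.

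*Grb10*, an adaptor protein that dampens insulin and IGF receptor signalling, was at 3.29 and 4.59 UMIs per 10000 in smooth muscle-like, 3.12 and 2.53 in myofibroblast-like and 2.11 and 3.03 in adventitial fibroblast-like cells. The intervals of these neighbours in the order overlapped in Batch 1. In general capillary-like cells it was at 0.853 and 0.895 and in AT2-like cells at 0.436 and 0.385.

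The other zinc finger genes were scarcer. *Plagl1*, a transcription factor that can activate other imprinted genes, was at 3.59 and 1.94 UMIs per 10000 in adventitial fibroblast-like, 4.29 and 3.62 in mesothelial-like and 3.09 and 0.655 in smooth muscle-like cells. A small endothelial group without a class name, of 22 and 49 cells, had 3.06 and 2.32, above the 0.524 and 0.455 of general capillary-like cells. *Zdbf2* was at most 0.417 and 0.690 in any class of 20 or more cells per batch, both in aerocyte-like cells, and 2 UMIs lay behind the first value.

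*Peg3* was read in 44.1% and 67.0% of endothelial cells, and *Mest* in 44.6% and 45.2%. *Peg3* was read in 49.1% and 75.8% of general capillary-like cells and, thinned to 600 UMIs, in 29.1% and 50.6%. Aerocyte-like cells had 1.67 and 6.49 UMIs per 10000 and arterial-like cells 0.833 and 3.91. These 3 classes were higher in Batch 2 than in Batch 1, a difference that was not tested. Mouse and library cannot be told apart in it.

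*Mest* was read at 5.59 and 4.12 UMIs per 10000 in general capillary-like, 7.71 and 4.06 in aerocyte-like and 3.502 and 3.78 in lymphatic-like cells, and at 1.81 and 0.631 in arterial-like cells. General capillary-like cells held 49.8% and 71.4% of its UMIs. In matrix fibroblast-like cells it was at 0.837 and 0.172, and in epithelial cells at 0.332 and 0.0540. Its level was lower in Batch 2 in all 4 lineages.

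*Ndn*, which encodes necdin, a protein of postmitotic cells, was low in all classes and highest in pericyte-like cells among the classes given here. It was at 2.64 (1.63 to 4.03) and 1.47 (1.07 to 1.96) UMIs per 10000 in pericyte-like cells, at 0.914 and 0.699 in adventitial fibroblast-like cells, and at 0.238 and 0.207 in endothelial cells. It had 0 UMIs in 332 epithelial cells of Batch 1, which, at 3 cells, allows a share of cells with a UMI of up to 0.904%, and 18 UMIs in 1460 epithelial cells of Batch 2.

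Co-detection was examined in cells thinned to 600 UMIs, as the number of cells with both genes over the number given by the product of their shares within each class. Of 45 pairs, 31 had a product of at least 5 cells in both batches. Among these 10 had a ratio over 1 and 6 a ratio under 1 in both batches. *Meg3* and *Dlk1* were found together in 98 cells against 81.6 from the product in Batch 1 (ratio 1.201) and in 559 against 532.9 in Batch 2 (ratio 1.05). *H19* and *Cdkn1c* had ratios of 1.37 and 1.24 on 25 and 55 cells, and *Cdkn1c* and *Grb10* 0.91 and 0.72 on 24 and 25 cells. In these sparse counts such ratios are a description, and the differences between classes given above are much larger.

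**Figure D4:**
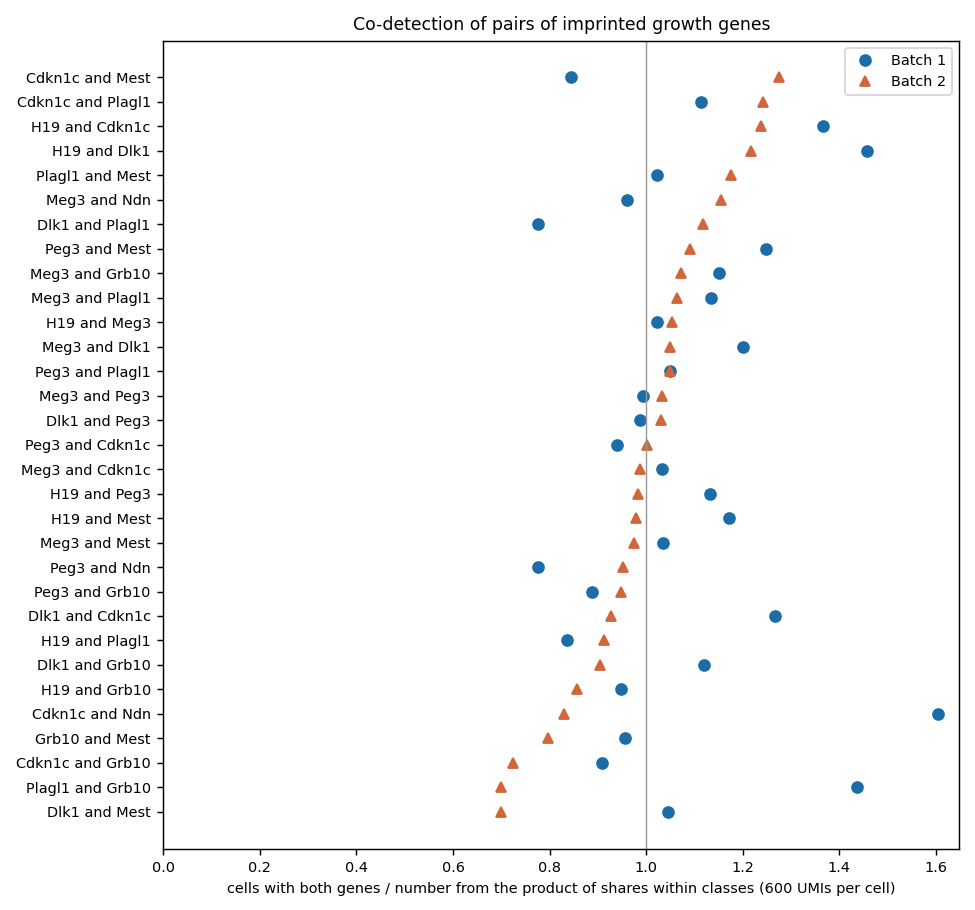
Ratio of the number of cells with both genes to the number from the product of shares within classes, at 600 UMIs per cell, for the 31 pairs with a product of at least 5 cells in both batches (circles Batch 1, triangles Batch 2). Of these, 10 pairs lie above 1 and 6 below 1 in both batches, and the remaining pairs change side between the batches.

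For 9 of the 10 genes similar patterns over class sums were sought, *Zdbf2* being too low. Besides the neighbours at the same locus, these were *Plat* for *H19* (r = 0.84), *Fzd2* and *Mmp23* for *Meg3* (0.82 and 0.81), *Ptprd* and *Nrk* for *Peg3* (0.88 and 0.85), *Ptk7* for *Cdkn1c* (0.84), *Ttc28* and Pcdhga9 for *Grb10* (0.91 and 0.89), *Ppap2a* and *Cxx1c* for *Mest* (0.87 and 0.86), *Tshz3* and *Slc25a4* for *Ndn* (0.89 and 0.88), *Rcor3* and *Meis1* for *Plagl1* (0.83 and 0.81) and *Atp1b1* for *Dlk1* (0.77).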

How the data were processed

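Whole lungs of 2 postnatal day 1 mice, 1 per batch, gave a Drop-seq library each. The authors deposited raw UMI counts per gene and cell barcode. The submitters' processing notes name Bowtie2 2.2.7 and mm10, and whether the counting used strand is not given in the sources used here. Nothing was rescaled before use.

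Cells with at most 10% of UMIs from mitochondrial genes were kept. Principal components (40) of 2000 variable genes, scaled within each batch and without imprinted genes, were clustered by the Leiden method (20 neighbours, resolution 2, leidenalg 0.10.2, Python 3.11.15). Clusters were named from marker lists with thresholds set after the clusters had been seen. No doublet caller was run. Raw counts were summed per class and batch, for classes with at least 20 cells in each batch, and tested with edgeR 4.0.16 (TMM, filterByExpr, quasi-likelihood test, Benjamini-Hochberg adjustment over all genes tested, threshold 0.05). The 6 comparisons used 8 sums of 12246 genes for lineages and 32 sums of 8555 genes for classes, of 32850 to 3424895 UMIs. Batch was a block, since the sums of a batch come from 1 animal. The batch differences of pairs of classes correlated across genes by 0.0448 to 0.546 (median 0.187, 120 pairs). The mean of several classes is that of their log2 expression. The scripts were tested on simulated data with 200 changed genes. In the mesenchymal comparison 37% of log2 changes of 1 and 83% of those of 2 were found, and 14 of 134 calls were wrong. In the AT2 comparison 10% and 56% were found, and 0 of 66 calls were wrong.

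Shares of cells were also computed after thinning each cell to 600 UMIs; the shallowest kept cells had 659 and 616, so that none was left out. Intervals are exact Poisson for levels and Wilson for shares. All 10 genes are named, with the other imprinted genes that passed and, for likeness, the 2 genes with the highest correlation of log2(CPM + 1), among genes with at least 50 CPM in a class sum of each batch; 1 such gene is not reported here. The genes, lists and comparisons were chosen with earlier results of these data known. The alternatives were DESeq2 1.42.0, no replicate block, no gene filter, a mitochondrial limit of 5%, a lower resolution of 1, a fit of only the classes compared, each batch alone, the cell types listed by the study for Batch 1, and leaving out cells with at least 2 markers of each of 2 lineages.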

Additional observations from a re-analysis of the deposited data

Results flagged for a closer look

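The 1940 cells of Batch 2 that were left out for mitochondrial UMIs over 10% (median depth 1957 UMIs) held all 10 genes above the limit that a count of 0 allows. In these cells, in UMIs per 10000 and beside the kept cells of the same batch, *Meg3* was at 19.5 against 15.6, *Peg3* at 7.11 against 7.73, *Dlk1* at 5.42 against 4.91 and *Cdkn1c* at 1.57 against 1.99. *H19* was at 1.35 against 1.52, *Mest* at 0.899 against 1.08 and *Grb10* at 0.666 against 0.734. *Plagl1* was at 0.3002 against 0.332, *Zdbf2* at 0.187 against 0.210 and *Ndn* at 0.127 against 0.132. These cells were not given a class, and the differences were not tested.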

How the results depend on the processing

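Without the replicate block, the genes passing numbered 2424 (3834 with it) for the mesenchymal lineage, 572 (1106) for AT2-like, 646 (1017) for lymphatic-like, 516 (854) for pericyte-like, 165 (530) for adventitial fibroblast-like and 775 (1299) for myofibroblast-like and smooth muscle-like cells. Of the 10 genes, 2 rather than 4 then passed for lymphatic-like cells and 3 rather than 7 for myofibroblast-like and smooth muscle-like cells. *Dlk1* and *Plagl1* (lymphatic), *Mest* (pericyte) and *Dlk1*, *Cdkn1c*, *Plagl1* and *Grb10* (muscle) lost their calls, and the block changed no other call of these genes. A fit of only AT2-like and AT1-like cells passed 1695 genes. At the lower resolution 2 of the 10 genes passed for lymphatic-like and 4 for myofibroblast-like and smooth muscle-like cells, and *Plagl1* turned to a log2 fold change of 1.00 in lymphatic-like cells. The cause was not tested. DESeq2 kept 34 of 38 calls or non-calls and lost *Plagl1* (lymphatic), *Mest* (pericyte), and *Dlk1* and *Cdkn1c* (muscle). The lymphatic comparison could not be made with the 5% limit or without cells with markers of 2 lineages, since under 20 cells were left in a batch. With Batch 1 or Batch 2 alone, 12 and 11 of 38 log2 fold changes moved by more than the SD between the batches. None of the 38 changed direction, but these were only the results that passed in the main analysis or an alternative. Some results outside them did change direction. In lymphatic-like cells the differences within Batch 1 and Batch 2 were -2.14 and 0.80 for *Meg3* and 0.42 and -0.955 for *Cdkn1c*. Among the 40 lineage levels of Batch 1, 10 moved by more than the SD between the batches with the cell types listed by the study. Of 80 lineage levels, 71 moved by less than the SD between the batches with the 5% limit and 56 without such cells. Thinning moved 62 of 80 shares, so that shares at full depth reflect depth as well as level. With 2 mice and, for lymphatic-like cells, 21 and 28 cells, small differences were not detectable at this depth.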
